A study of Homo sapiens with 9 samples.

Results

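Complement is a cascade of secreted proteases that tags and lyses cells, and alpha-2-macroglobulin (A2M) is a secreted protein that traps proteases of many kinds. The genes described here are A2M and 8 genes of complement, namely C3, C1S, C1R, CFB, CFD, CFI, SERPING1 and CD55. They were taken by symbol from a list made with results of these data in view, and each symbol was matched to a gene ID of the count tables, keeping the ID with the most reads where there were several. They make up 9 of 64253 gene IDs, and 7 of them had enough reads to be tested, as did 16561 IDs in all. The 2 that did not were CFB and CFD. Because the list was drawn up with their changes known, the fold changes of the 9 genes below are a description and carry no support of their own.

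The cells were IMR90, a line of fibroblasts from fetal lung, grown in 2% O2 and used at population doubling 30. Every culture was infected with lentiviral vectors of the pLKO.1 type on 2 occasions 24 hours apart and then held in puromycin at 3 ug per mL for 7 days. The control group received vector only, described in one label as empty and in another as carrying GFP. The shRRM2 group received a hairpin against RRM2, which encodes a subunit of the enzyme that supplies deoxyribonucleotides for DNA synthesis, followed by the vector. The shRRM2/shp16 group received the RRM2 hairpin followed by a hairpin against p16, the inhibitor of CDK4 and CDK6 encoded by CDKN2A. Each group held 3 libraries, lettered a to c, of total RNA depleted of ribosomal RNA. The hairpin against p16 was not examined on its own, and the labels name 1 hairpin for each target. They do not say whether the 3 libraries of a group came from separate cultures, so the errors below measure the spread between libraries, which may be technical.

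Complement starts in 3 ways. In the classical pathway the proteases C1r and C1s are carried by C1q, in the lectin pathway MASP proteases are carried by collectins or ficolins, and in the alternative pathway factor B and factor D act on C3 that is already deposited. All routes cleave C3 and then C5, and the terminal proteins form a pore. Host cells are spared by secreted inhibitors, such as C1 inhibitor (SERPING1) and factor I, and by the membrane proteins CD46, CD55 and CD59. The liver makes most of the complement in plasma, and fibroblasts are a known local source of C1r, C1s, C3 and C1 inhibitor.

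Upstream sequence of 5 of the 9 genes was held in the RefSeq table used here (build GRCh38.p14). It is printed for the 3 that also had enough reads, because C1R and CD55 were higher and CFI lower in shRRM2/shp16 than in shRRM2. Each run is the 250 bases before an annotated start site, written 5′ to 3′ on the gene's strand. Capitals mark any match, on either strand, to 5 short motifs: NF-kB-like GGNNNTTCC, STAT-like TTCNNNGAA, C/EBP-like TTGCNNAA, interferon-response-like GAAANNGAA and CRE-like TGACGNNA.
C1R, start at 7092445, chr12:7092446-7092695, minus strand: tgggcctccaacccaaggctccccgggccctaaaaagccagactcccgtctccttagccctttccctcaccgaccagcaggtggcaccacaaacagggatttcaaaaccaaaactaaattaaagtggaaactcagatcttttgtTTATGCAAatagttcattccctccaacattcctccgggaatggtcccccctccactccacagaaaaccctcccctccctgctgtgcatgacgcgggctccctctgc
C1R, start at 7091893, chr12:7091894-7092143, minus strand: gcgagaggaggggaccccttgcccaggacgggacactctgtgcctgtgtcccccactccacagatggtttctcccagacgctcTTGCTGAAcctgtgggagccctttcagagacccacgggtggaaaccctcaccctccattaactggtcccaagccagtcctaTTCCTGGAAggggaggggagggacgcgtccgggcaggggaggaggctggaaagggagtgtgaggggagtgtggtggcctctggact
CD55, start at 207321678, chr1:207321428-207321677, plus strand: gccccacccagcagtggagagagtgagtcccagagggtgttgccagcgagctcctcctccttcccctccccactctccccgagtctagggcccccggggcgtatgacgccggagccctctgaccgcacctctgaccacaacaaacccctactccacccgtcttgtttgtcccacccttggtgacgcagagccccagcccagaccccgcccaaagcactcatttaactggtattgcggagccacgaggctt
CFI, start at 109801999, chr4:109802000-109802249, minus strand: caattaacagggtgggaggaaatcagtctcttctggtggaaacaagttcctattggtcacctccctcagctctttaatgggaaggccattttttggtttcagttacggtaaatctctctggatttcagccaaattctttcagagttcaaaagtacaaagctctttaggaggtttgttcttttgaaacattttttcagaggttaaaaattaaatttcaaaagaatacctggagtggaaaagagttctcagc

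The first C1R window held 1 match, C/EBP-like, beginning at -106 from the start site, which counts as 0. The second held a C/EBP-like match at -167 and a STAT-like match at -86. The letters of the 5 motifs did not occur in the CD55 and CFI windows. Among 34788 windows of the same length in the table, 17.1% held the NF-kB-like letters, 9.05% the C/EBP-like, 6.89% the interferon-response-like, 6.57% the STAT-like and 6.53% the CRE-like. The motifs do not overlap one another in the printed runs. The motif letters were set after the data were seen, and a looser NF-kB-like pattern tried first did match in the second C1R window and in the CD55 window. These matches describe letters in a window and are no evidence that a factor binds there.

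Reads assigned to genes ranged from 15770895 to 24873291 per library. RRM2 itself stood at 485 CPM (reads scaled to a common library size) in control, 62.1 in shRRM2 and 177 in shRRM2/shp16. Its level in the group with both hairpins thus lay between the others. The second hairpin and this weaker loss of RRM2 came together in shRRM2/shp16 and cannot be told apart. CDKN2A stood at 6.02, 6.50 and 4.28 CPM, and its counts do not separate p16 from the other product of the locus. All 10 fibroblast markers were measured, and their summed level was 37935 to 39109 CPM in control, 40940 to 41893 in shRRM2 and 29474 to 30138 in shRRM2/shp16. The sum does not speak for each marker. In shRRM2 against control 3 were called higher and 6 lower by edgeR, beside 29% and 31.8% of all tested genes. In shRRM2/shp16 against control 3 were called higher and 6 lower, beside 30% and 32.4%. Of 10 monocyte and macrophage markers 3 passed the filter, and their sum over the list stayed at 8.49 CPM or less in every library. The endothelial list (4 of 8 tested) summed to 65.5 to 70.8, 68.1 to 73.2 and 115 to 124 CPM in the 3 groups, and the epithelial list (5 of 8 tested) to 156 to 159, 174 to 179 and 55.6 to 59.3 CPM. Of 8 hepatocyte markers 6 had at most 3 reads in every library, as did PTPRC, TYROBP and ITGAM of the macrophage list. The other 2 hepatocyte markers, APOB and CPS1, were tested and went in opposite directions. APOB was 3.92 higher on the log2 scale in shRRM2 against control and 1.22 lower in shRRM2/shp16 against shRRM2, both called by edgeR. It had only 1 to 30 reads in a library. CPS1 was 0.87 lower and then 0.45 higher, also called, at 16.5, 8.95 and 12.3 CPM in the 3 groups. SFTPC, TTR, AHSG and HNF4A had no read. The share of uniquely mapped reads outside annotated genes was 17.6% to 18.9% in control, 27.7% to 28.8% in shRRM2 and 23.5% to 24.4% in shRRM2/shp16. These marker sums and shares moved with the groups, and their part in the results was not tested. In bulk RNA, fewer cells of one kind and less RNA per cell cannot be told apart.

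A gene is said here to have risen or fallen only where edgeR's quasi-likelihood test on all 9 libraries gave an adjusted p under 0.05 over the 16561 genes. In shRRM2 against control, 2 of the 7 tested genes rose (A2M and C3) and 2 fell (C1R and SERPING1). This was beside 60.9% of all tested genes called either way in that comparison. The libraries of the groups did not overlap for 4 of the 7, beside 63.6% of all tested genes. In shRRM2/shp16 against shRRM2, 4 rose (C3, C1R, C1S and CD55) and 2 fell (A2M and CFI), beside 61.1% of all tested genes, and the groups did not overlap for 6, beside 64.7%. In shRRM2/shp16 against control, 4 rose (C3, C1R, C1S and CD55) and 2 fell (CFI and SERPING1), beside 62.4%, and the groups did not overlap for 6, beside 66.2%. The median log2 fold change of the 7 tested genes was 0.10, 0.89 and 0.41 in these 3 comparisons, and that of all tested genes was 0.00, 0.01 and 0.01. The 3 comparisons share libraries, so a gene's fold changes in them are not independent. The counts support no statement about the list as such.

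**Figure D1:**
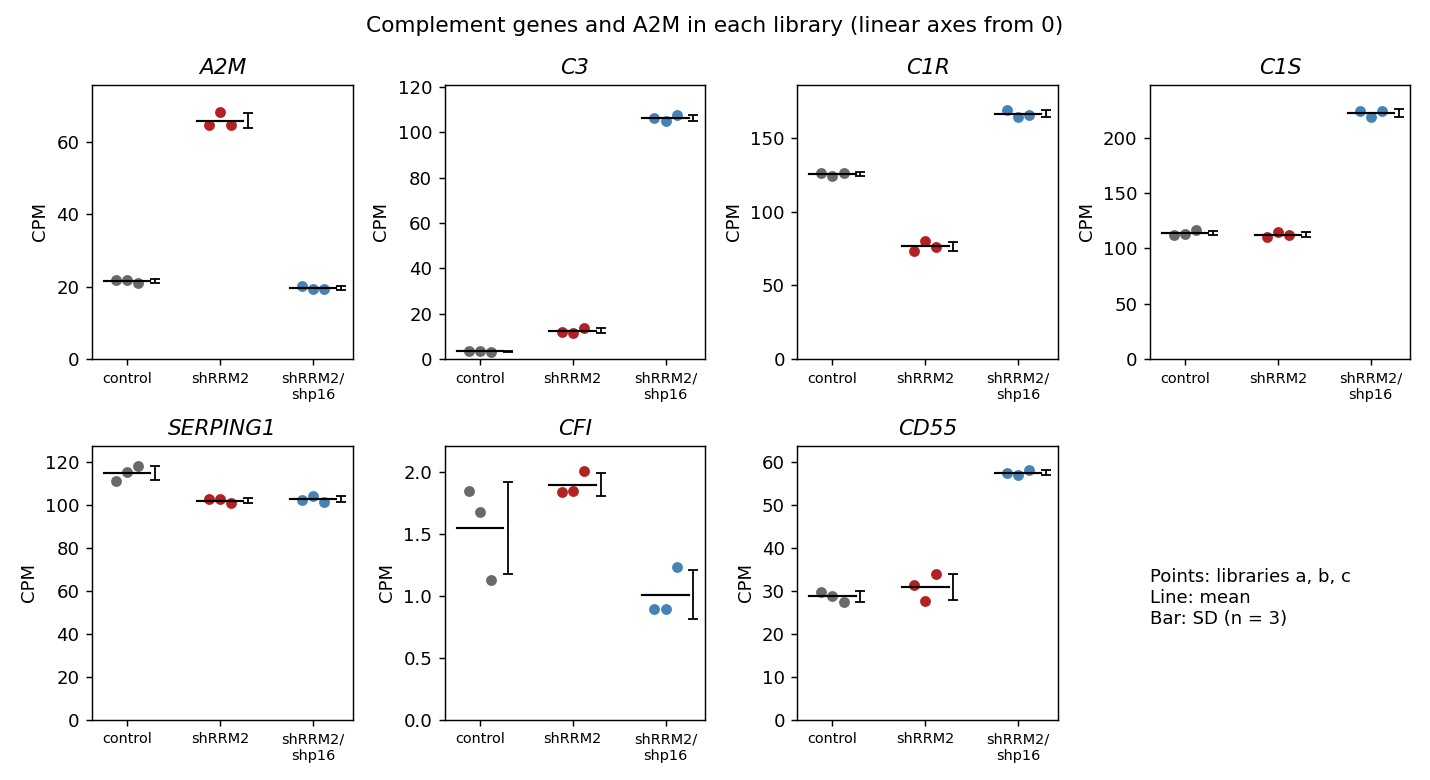
Level of the 7 tested genes in each library, in CPM on linear axes that start at 0. Points are libraries a, b and c, the line is the mean and the bar the SD (n = 3). A2M is high in shRRM2 alone (64.6 to 68.4 CPM) and C3 is highest in shRRM2/shp16 (105 to 108 CPM).

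A2M was the one gene of the 7 tested that rose in shRRM2 against control and fell in shRRM2/shp16 against shRRM2. Its product encloses a protease that cleaves it and is then cleared through the receptor LRP1. The control libraries had 21.8, 21.9 and 21.0 CPM, the shRRM2 libraries 64.6, 68.4 and 64.8, and the shRRM2/shp16 libraries 20.2, 19.3 and 19.5. The 3 shRRM2 libraries lay far above the other 6, with a log2 fold change of 1.61 ± 0.05 (SE) against control, or 3.05-fold. Against shRRM2, A2M in shRRM2/shp16 fell by 1.75 ± 0.05 on the log2 scale, to 29.8% of its level. The shRRM2/shp16 libraries all lay just below the control libraries, but the difference of -0.14 ± 0.06 on the log2 scale was not called (edgeR adjusted p = 0.0605). A2M lies at chr12:9067664-9116229 on the minus strand (GRCh38), and the antisense gene A2M-AS1, which shares 561 exon bases with it, had 24 reads over the 9 libraries.

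The receptor and a relative of A2M were also highest in shRRM2, with smaller differences, and neither was called in shRRM2/shp16 against control. LRP1, the endocytic receptor for A2M bound to protease, rose by 0.44 ± 0.02 in shRRM2 against control and fell by 0.41 in shRRM2/shp16 against shRRM2, at mean levels of 1343, 1824 and 1374 CPM in control, shRRM2 and shRRM2/shp16. CD109, a membrane-bound member of the A2M family, rose by 0.50 and fell by 0.48 on the same scale, at 80.3, 113 and 80.7 CPM. CPAMD8, another member, was at 1.05 CPM or less on average in each group and was not called in any comparison. A2ML1 and PZP were below the filter.

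C3 had the widest range of the 7 tested genes. C3 is the protein on which all the activation routes converge, and its fragments label surfaces for uptake. Its reads numbered 88, 60 and 51 in the control libraries, 191, 201 and 240 in shRRM2, and 2015, 2108 and 2004 in shRRM2/shp16. Levels were 3.69, 3.35 and 3.04 CPM in control, 12.1, 11.6 and 13.8 in shRRM2, and 106, 105 and 108 in shRRM2/shp16. No library of one group came near those of another. The log2 fold change was 1.88 ± 0.11 for shRRM2 against control (3.68-fold), 3.09 ± 0.06 for shRRM2/shp16 against shRRM2 (8.50-fold) and 4.97 ± 0.07 for shRRM2/shp16 against control (31.2-fold). On the log2(RPKM + 1) scale, where the added 1 shrinks the change of a low gene, shRRM2 against control gave 0.80. C3 lies at chr19:6677704-6730562 on the minus strand.

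CFB and CFD encode the protease subunit of the alternative C3 convertase and the protease that activates it. CFB had 1 read in all, in shRRM2/shp16 library c, under the 7 gene IDs that carry its symbol. CFD had none under its 2 IDs. A count of 3 reads corresponds to 0.121 to 0.190 CPM in these libraries, which is the level that a count of 0 allows, for counting error only. That limit does not hold for genes annotated under several IDs, since a read that maps to several places is not counted. Among protein-coding symbols with 1 ID, 21.6% had at most 3 reads in every library, against 52.2% of those with 2 IDs and 78.2% of those with 5 or more. Of 6 genes near CFB in the MHC region that cells generally use, picked after their values were seen, BAG6 had 7 reads over all its IDs and all libraries, NELFE 1, and EHMT2, VARS, LSM2 and RING1 none. The counts therefore give no level for CFB or CFD. Similarly C2 (7 IDs), C4A (4 IDs) and C4B (5 IDs), which belong to the classical pathway, had at most 4 reads in a library. Properdin (CFP), which steadies the alternative convertase, was at 0.349, 0.519 and 0.794 CPM on average and was called only in shRRM2/shp16 against control, at 1.14 on the log2 scale.

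C1R and C1S encode the paired proteases that start the classical pathway, C1r activating C1s. C1R was measured at 126, 124 and 126 CPM in the control libraries, at 73.5, 80.0 and 75.8 in shRRM2, and at 169, 164 and 166 in shRRM2/shp16. The shRRM2 libraries were the lowest and the shRRM2/shp16 libraries the highest, with no overlap. C1R fell by 0.71 ± 0.04 in shRRM2 against control and rose by 1.12 ± 0.04 in shRRM2/shp16 against shRRM2 (2.18-fold), ending 0.41 ± 0.03 above control on the log2 scale. C1S was at 112, 113 and 116 CPM in control, 110, 115 and 112 in shRRM2, and 224, 219 and 224 in shRRM2/shp16. The control and shRRM2 libraries overlapped, with a difference of -0.02 ± 0.04, while shRRM2/shp16 stood 0.98 ± 0.03 above shRRM2 (1.98-fold).

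C1R and C1S thus differed from each other in shRRM2. The number of C1R reads per C1S read was 1.12, 1.10 and 1.08 in control, 0.667, 0.696 and 0.675 in shRRM2, and 0.754, 0.752 and 0.739 in shRRM2/shp16. The groups did not overlap, and the ratio in shRRM2/shp16 stayed below that of control. With 3 libraries against 3 an exact two-sided permutation test cannot go below p = 0.1, which each of the 9 comparisons made among 3 such ratios reached (adjusted p = 0.1). C1RL, a relative of C1R next to it on chromosome 12, was at 14.5 CPM in control, 12.5 in shRRM2 and 36.8 in shRRM2/shp16. It rose by 1.57 in shRRM2/shp16 against shRRM2, and its fall of 0.23 in shRRM2 against control was called in 11 of 20 other ways of processing. C1R and C1RL share 672 exon bases on the same strand, where a read cannot be given to either, and the C1R to C1RL ratio of reads was 8.64, 6.14 and 4.52 (geometric means) in control, shRRM2 and shRRM2/shp16. C1S lies at chr12:6988259-7071032 on the plus strand and C1R at chr12:7080199-7092607 on the minus strand.

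SERPING1 encodes C1 inhibitor, a serpin that inactivates C1r and C1s. Its level was 111, 115 and 118 CPM in control, 103, 103 and 101 in shRRM2, and 103, 104 and 101 in shRRM2/shp16. The control libraries lay above the other 6, and those 6 overlapped. SERPING1 fell by 0.17 ± 0.04 on the log2 scale in shRRM2 against control, and shRRM2/shp16 differed from shRRM2 by 0.01 ± 0.04. The fall of 0.16 ± 0.04 in shRRM2/shp16 against control was not called in the 5 fits on RPKM, where it was -0.06. The summed reads of C1R and C1S per SERPING1 read were 2.08 in control, 1.85 in shRRM2 and 3.78 in shRRM2/shp16 (geometric means), with no overlap between groups. SERPING1 lies at chr11:57597387-57614853 on the plus strand.

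**Figure D2:**
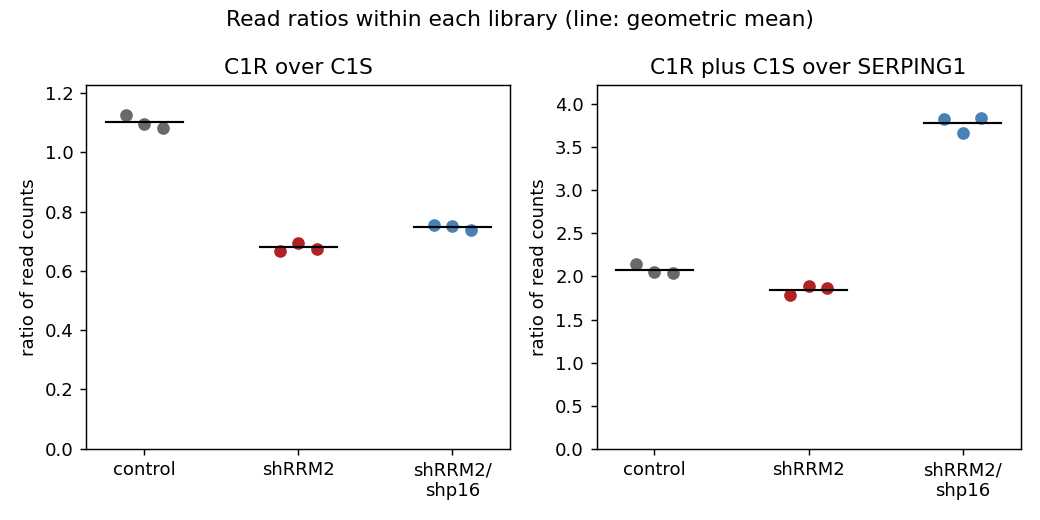
Ratios of read counts within each library, on linear axes that start at 0. Points are the 3 libraries of a group and the line is their geometric mean. The C1R to C1S ratio is lowest in shRRM2 (0.667 to 0.696), and the ratio of C1R plus C1S to SERPING1 is highest in shRRM2/shp16 (3.67 to 3.85).

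CFI encodes factor I, the protease that cuts C3b and C4b when a cofactor is present. It had few reads, 44, 30 and 19 in control, 29, 32 and 35 in shRRM2, and 17, 18 and 23 in shRRM2/shp16. Levels were 1.84, 1.68 and 1.13 CPM, then 1.84, 1.85 and 2.01, then 0.898, 0.896 and 1.24. The control libraries spread across both other groups, while the shRRM2/shp16 libraries lay below the shRRM2 libraries. CFI fell by 0.91 ± 0.25 on the log2 scale in shRRM2/shp16 against shRRM2 (edgeR adjusted p = 0.00189). Its fall of 0.65 ± 0.26 against control was called (edgeR adjusted p = 0.026) and kept in 10 of 19 alternatives. It was lost in DESeq2 (adjusted p = 0.0874), without any of 4 single libraries, control a or b and shRRM2/shp16 a or b (edgeR adjusted p of up to 0.175), and in 4 limma fits on RPKM (adjusted p of up to 0.104), where it was as small as -0.12. CFI lies at chr4:109740694-109802179 on the minus strand.

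Other secreted regulators of complement went in different directions. C4BPB, a chain of the C4b-binding protein, was at low levels, rising by 1.04 in shRRM2 against control and falling by 0.89 in shRRM2/shp16 against shRRM2, at 0.681, 1.38 and 0.749 CPM. Clusterin (CLU), which binds the terminal complex, had the order of C1R, at 275, 168 and 426 CPM, with a fall of 0.72 and a rise of 1.35 on the log2 scale. Vitronectin (VTN), another inhibitor of the terminal complex, rose by 1.19 in shRRM2/shp16 against shRRM2, from 0.539 to 1.23 CPM.

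CD55 (decay-accelerating factor) is a membrane protein that takes apart the C3 convertases. It was at 29.8, 28.9 and 27.3 CPM in control, 31.4, 27.7 and 33.8 in shRRM2, and 57.5, 56.9 and 58.0 in shRRM2/shp16. The control and shRRM2 libraries overlapped and the shRRM2/shp16 libraries lay above them all. CD55 rose by 0.89 ± 0.06 in shRRM2/shp16 against shRRM2 (1.86-fold) and by 0.997 ± 0.06 against control. In shRRM2 against control the difference was 0.10 ± 0.06 (edgeR adjusted p = 0.143), and without shRRM2 library b it was 0.19 and was called (edgeR adjusted p = 0.0123). CD55 lies at chr1:207321376-207386804 on the plus strand.

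The other common membrane regulators had patterns of their own. CD46, the membrane cofactor for factor I, rose by 0.68 in shRRM2 against control and by 0.17 in shRRM2/shp16 against shRRM2, at 122, 195 and 219 CPM. CD59, which blocks the terminal pore, rose by 0.09 and then fell by 0.73, at 613, 655 and 395 CPM. CSMD2 and CSMD3, large membrane proteins of the brain with complement-inhibiting domains, rose by 0.65 and 2.50 in shRRM2 against control and fell by 1.84 and 2.48 in shRRM2/shp16 against shRRM2. CSMD2 was at 14.7, 23.1 and 6.44 CPM, and CSMD3 was low, at 0.729, 4.10 and 0.729 CPM. The rise of CSMD3 ranged from 0.17 to 2.61 over 19 alternatives and was called in each. SUSD4, a further membrane inhibitor, fell by 2.69 in shRRM2/shp16 against shRRM2, from 0.924 to 0.138 CPM.

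Per kilobase of the length that the deposited RPKM imply, the 7 tested genes could be set beside each other. In control the order was SERPING1 at 31.9 ± 0.97 (SD, n = 3) CPM per kb, C1R at 22.1 ± 0.22, C1S at 17.6 ± 0.31, CD55 at 7.07 ± 0.31, A2M at 3.38 ± 0.075, then C3 at 0.403 ± 0.039 and CFI at 0.400 ± 0.096, which did not differ beyond their spread. In shRRM2, A2M moved above CD55, at 10.3 ± 0.34 against 7.63 ± 0.76, and C1S stood above C1R, at 17.4 ± 0.38 against 13.5 ± 0.58. In shRRM2/shp16, C1S was the highest at 34.4 ± 0.51, ahead of C1R at 29.3 ± 0.42 and SERPING1 at 28.5 ± 0.40, and C3 at 12.8 ± 0.17 had come close to CD55 at 14.2 ± 0.14. C3 thus went from a level above 15.7% of all tested genes in control to above 80.7% of them in shRRM2/shp16, while SERPING1 stayed above 92.1% or more in every group. The order rests on the lengths and method used. The authors' deposited table, whose group values have no stated unit, puts C1R above C1S in shRRM2 (64.0 against 46.0). In shRRM2/shp16 the authors' deposited table has C1R at 150.4, C3 at 110.05, C1S at 91.9, SERPING1 at 61.4 and CD55 at 31.6, so that C1R stands above C1S and C3 well above CD55.

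**Figure D3:**
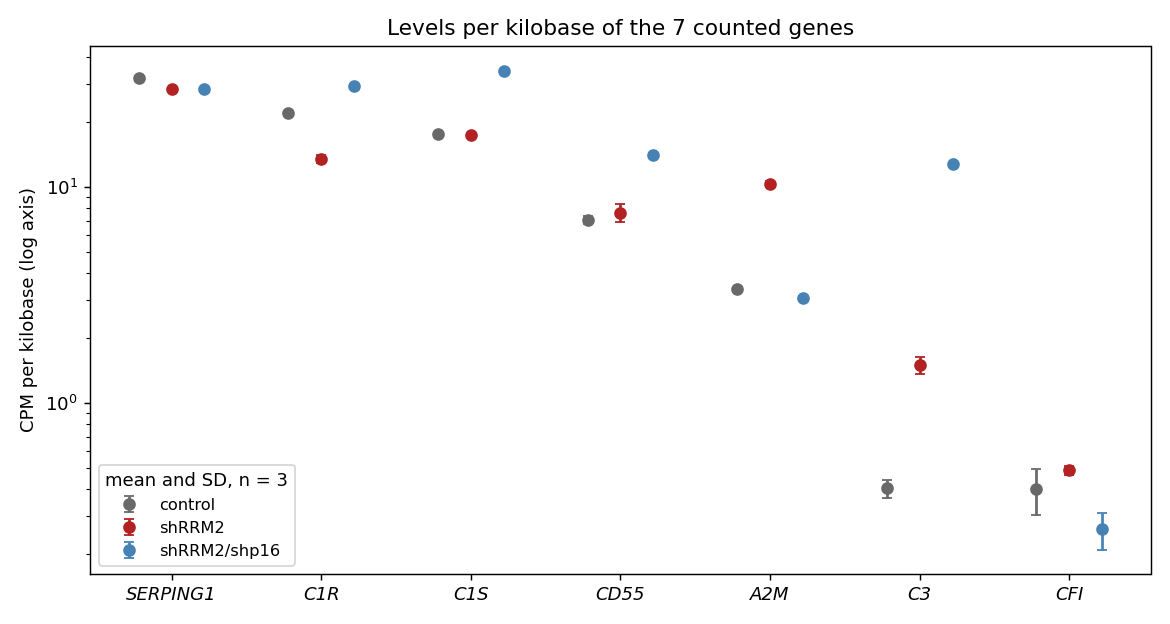
Mean level of the 7 tested genes per kilobase of the length that the deposited RPKM imply, on a log axis. The bar is the SD of 3 libraries. Grey is control, red shRRM2 and blue shRRM2/shp16. C3 spans 0.403 to 12.8 CPM per kb, and SERPING1 stays between 28.4 and 31.9.

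Of 53 other genes of the complement system, listed by role, 22 were tested. In shRRM2 against control 8 rose and 7 fell, beside 60.9% of all tested genes called either way. In shRRM2/shp16 against shRRM2 9 rose and 7 fell, beside 61.1%, and in shRRM2/shp16 against control 10 rose and 6 fell, beside 62.4%. In the lectin pathway MASP1, the gene of a protease related to C1r and C1s, fell by 0.84 and then rose by 1.03, at 10.2, 5.64 and 11.6 CPM. The collectin COLEC10 rose in both steps, by 1.55 and 1.14, from 4.96 CPM in control to 14.4 in shRRM2 and 31.7 in shRRM2/shp16. The scavenger receptor COLEC12 fell by 0.62 and rose by 1.18. In the terminal pathway C5 fell by 0.66 and C7 by 0.88 in shRRM2 against control, and neither was called in shRRM2/shp16 against shRRM2. C7 had only 7 to 34 reads in a library, and its fall was called in 12 of 18 alternatives. Among the receptors C5AR2, a receptor for C5a, rose by 1.13 and fell by 0.81. C5AR2 had only 21 to 49 reads in a library, and each of these changes was called in 17 of 19 alternatives. C1QBP, named for binding C1q and found mostly in mitochondria, fell by 0.52 and rose by 0.16.

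Counting the listed genes as well, 33 of the 61 complement genes were below the filter, and 14 had no read in any library. C1QA, C1QB and C1QC, the chains of the C1q molecule that carries C1r and C1s, were among the 14, each with 1 gene ID. So were MBL2, FCN2 and FCN3, carriers of the lectin pathway, and C8B of the pore. The mRNAs of C1r, C1s and their inhibitor were thus measured without a detectable mRNA for C1q at this depth.

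**Figure D4:**
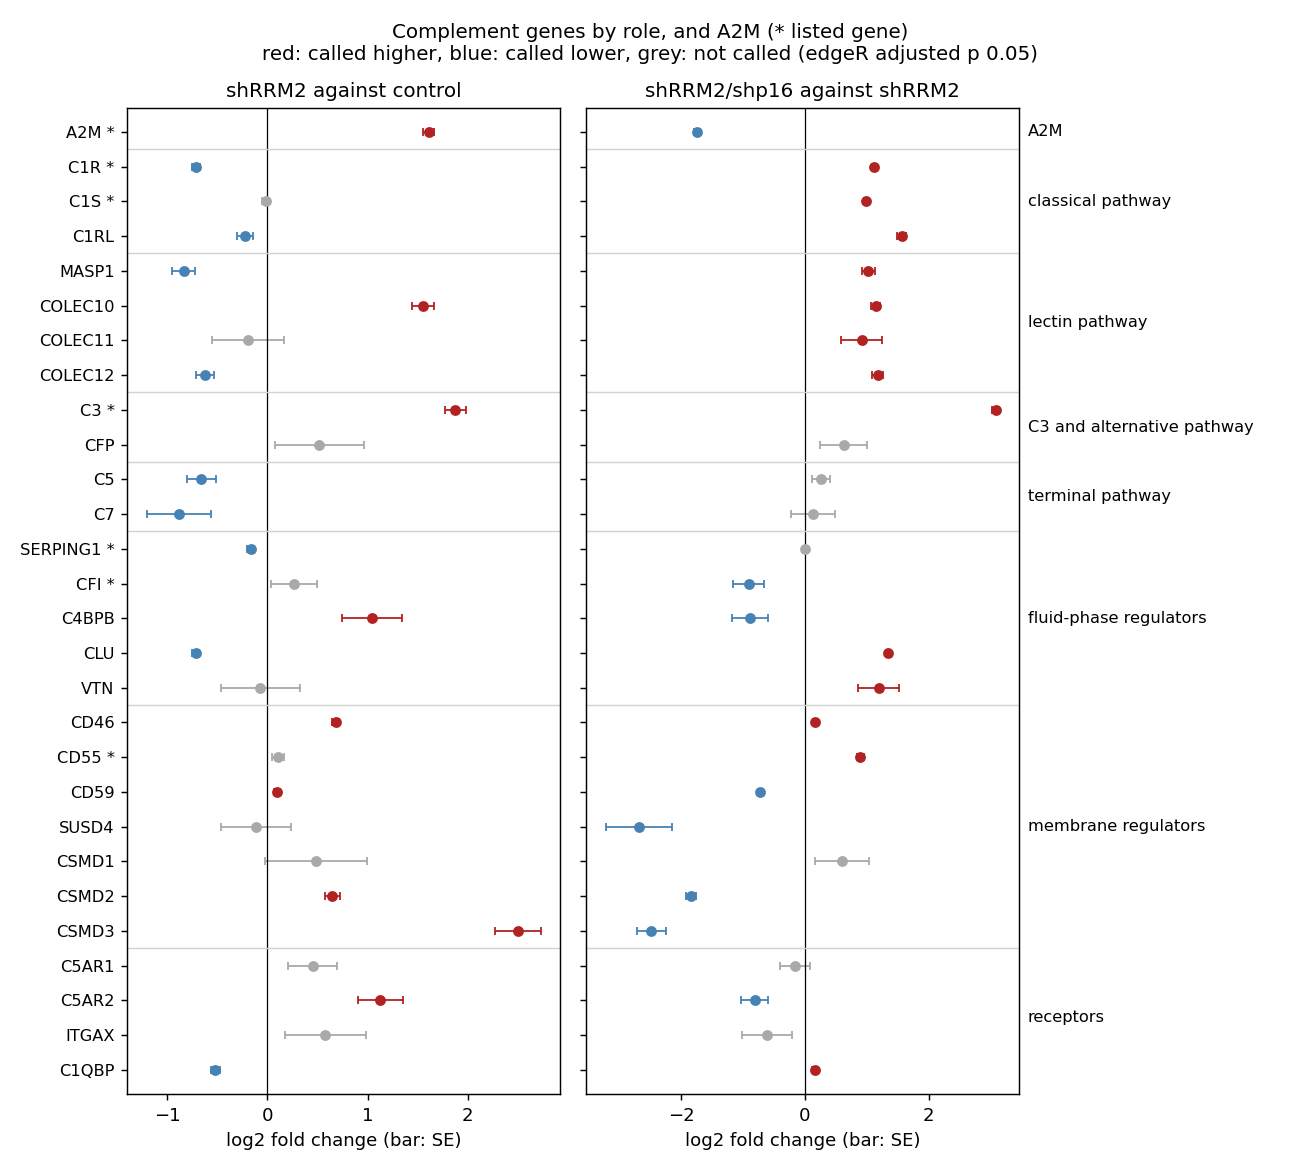
Log2 fold change with its SE for A2M and tested complement genes, grouped by role. The left panel sets shRRM2 against control and the right panel shRRM2/shp16 against shRRM2. Red marks genes called higher, blue called lower and grey not called, and an asterisk marks the listed genes. The classical and lectin genes lie right of 0 in the right panel, and both panels share the shRRM2 libraries.

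Cytokines, receptors and transcription factors known to bear on the transcription of C3 and of acute-phase proteins were mostly higher in shRRM2/shp16. Of 23 such genes, listed with earlier results of these data known, 19 were tested. OSM, TNF, IFNG and IFNB1 were below the filter. In shRRM2/shp16 against shRRM2 15 rose and 1 fell, beside 31.9% and 29.1% of all tested genes called higher and lower. The 1 that fell was IL6ST, by 0.46, at 472, 651 and 474 CPM in control, shRRM2 and shRRM2/shp16. In shRRM2 against control 11 rose and 1 fell, beside 29% and 31.8%. In shRRM2/shp16 against control 16 rose and 0 fell, beside 30% and 32.4%. The cytokine IL6 was at 7.55, 34.4 and 283 CPM in control, shRRM2 and shRRM2/shp16, and IL1B at 3.04, 12.4 and 216. Both had the order of C3. IL1R1, the receptor for interleukin 1, was at 110, 106 and 504 CPM, the order seen for C1S. The transcription factor genes CEBPB, CEBPD, RELB and NFKB2 rose by 1.72, 1.13, 1.58 and 1.13 in shRRM2/shp16 against shRRM2. SOCS3, a feedback inhibitor of cytokine signalling, fell by 0.94 and then rose by 2.59. RELA, STAT3 and IL6R were not called in shRRM2/shp16 against shRRM2. Of 20 acute-phase genes only 3 were tested, and they did not move together. PTX3, a pattern-recognition protein that binds C1q, fell by 1.09 in shRRM2 against control and rose by 1.38 in shRRM2/shp16 against shRRM2, at 16.5, 7.75 and 20.2 CPM. HPX, which encodes the heme-binding hemopexin, rose by 0.999 and fell by 1.47, at 0.659, 1.31 and 0.465 CPM, and ITIH3 rose by 1.36 and fell by 1.86, at 0.269, 0.718 and 0.193 CPM. Whether any inducer acted on the 9 genes was not tested.

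The genes whose 2 fold changes lay nearest those of A2M, of 11306 genes averaging 2 or more on the log2 CPM scale, were FUCA1, CCND2, HDAC9 and GPNMB, at distances of 0.097, 0.11, 0.121 and 0.193 in the plane of the log2 fold changes (first shRRM2 against control, then shRRM2/shp16 against shRRM2). FUCA1 encodes a lysosomal fucosidase and had fold changes of 1.66 and -1.83. CCND2 encodes cyclin D2 and had 1.51 and -1.78. The nearest to C3 were IL6 at 0.327, PTGS2 at 0.605, SLC16A6 at 0.873 and EDNRB at 0.945. PTGS2, the inducible cyclooxygenase, had fold changes of 2.04 and 3.67. C3 thus had fewer close neighbours than A2M, as the distances show.

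The authors' deposited table, which compares the group with both hairpins to the group with the RRM2 hairpin alone, gave log2 fold changes of -1.88 for A2M, 2.93 for C3, 1.23 for C1R, 0.998 for C1S, 0.86 for CD55 and -1.002 for CFI. In the authors' deposited table SERPING1 was at -0.05 with a q-value of 0.748, and CFI had a q-value of 0.00906. The group values there for shRRM2 and shRRM2/shp16 were 0.103 and 0.074 for CFB and 0 and 0.014 for CFD. Neither gene was marked significant.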

How the data were processed

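Reads per gene ID in 9 RNA libraries were deposited as whole-number counts, per the labels and values. TopHat2 2.0.9, Cufflinks 2.0.2, Cuffdiff and the build GRCh38 are named in the submitters' processing notes, and the counting options are not given in the sources used here. A deposited table held log2 values, per the file headers, which were turned back into RPKM after their scale was found by matching them to the counts. The same table held the authors' group values (expression signal), log2 fold changes, p-values and q-values for shRRM2/shp16 against shRRM2. The RPKM column of shRRM2 library c differed by over 1% from its counts in 94.5% of 11138 genes, and the other 8 columns matched theirs.

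Counts were tested with edgeR 4.0.16 (R 4.3.3; filterByExpr, TMM, quasi-likelihood, all 9 libraries in 1 fit, Benjamini-Hochberg over 16561 genes, which hold 99.8% of counts). Reads outside genes, ambiguous or mapped to several places (40.3% to 44.9% of all) were left out. CPM use TMM-scaled library sizes, and lengths per kb come from the deposited table. The fit was tested on simulated data. Ratios were compared with exact permutation tests. Alternatives used DESeq2 1.42.0, limma 3.58.1 on log2 RPKM with 1 or 0.1 added, other filters and scalings, a replicate block and each library left out. Positions are from GENCODE 29. Genes named include the 9 listed, both hairpin targets, and the 4 genes nearest to A2M and to C3 in their fold changes. Others come from the complement, A2M family, acute-phase, inducer and cell marker lists. Some genes counted in these lists are not reported by name here. The members and lists were chosen with earlier results of these data known.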

Additional observations from a re-analysis of the deposited data

How the results depend on the processing

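Each result was recomputed under up to 20 alternatives. Of the values of the 7 tested genes in the 3 comparisons, 402 kept their side of the threshold and any called direction, 14 lost their call and 1 gained it. The lost calls were those of CFI and SERPING1 in shRRM2/shp16 against control, and the gained one was CD55 without shRRM2 library b. With limma on log2(RPKM + 1) and a mean RPKM of at least 1, 12612 genes were tested. Of these 6702, 7393 and 7815 were called in shRRM2 against control, shRRM2/shp16 against shRRM2 and shRRM2/shp16 against control. Of the 8 other complement genes then tested 6, 8 and 8 were called in the same order, against 15, 16 and 16 of 22 in edgeR. The same limma fit without that filter called 11, 14 and 13 of the 22. Of all 16561 genes it called 7819, 8676 and 9274. Both the fit and the filter thus lowered the number of genes called. The filter also lowered the number tested, and the share called was higher with it than without it. The letters a to c did not pair the libraries: deviations of same-letter libraries correlated at -0.020 to 0.049. With the replicate block 10101, 10134 and 10388 of all genes were called in those comparisons. Of the 7 tested genes 4, 6 and 6 were called with it, the same as without it. Leaving out 1 library at a time gave 4 to 5, 6 to 6 and 5 to 6. Summing all gene IDs of CFB and CFD left both below the filter, so no value could be given. The depth of 15770895 reads or more limits CFI most, with 17 to 44 reads in a library. The limma fit without the unmatched RPKM column with 0.1 added was chosen after seeing the data.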
